A study of Mus musculus with 4 samples.

Results

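The 2 microRNA transfections of the series were set directly against each other: cultured mouse heart muscle cells that received the microRNA mimic hsa-miR-590-3p and the same kind of cells that received hsa-miR-199a-3p. A mimic is a synthetic short RNA duplex that acts as a microRNA once inside a cell. All libraries came from cardiomyocytes of CD1 mice at postnatal day 1 and were collected at 72 h, with each mimic at 50 nM. The series held 4 libraries, 1 per condition, of which these 2 form the comparison; mock-transfected cells and cells given the Caenorhabditis elegans microRNA cel-miR-67 were the controls, and their values are given as background. Of 27207 gene symbols in the files, the 13531 averaging 1 CPM or more over the 2 microRNA libraries were compared; CPM is the count of reads of a gene scaled to the reads of its library. Neither ratios nor levels were used to choose the members beyond that minimum. The labels say neither how many animals gave the cells nor whether the dishes shared an isolation.

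MicroRNAs are short RNAs that guide Argonaute proteins to messenger RNAs, mostly through pairing of the seed, a run of bases near the 5′ end, with sites in the 3′ untranslated region. Pairing shortens the life of the messenger and lowers its translation, so a microRNA with another seed acts on another set of messengers. Both microRNAs are known for letting newborn heart muscle cells re-enter the cell cycle. The mature mouse miR-199a-3p is shown because its seed, in capitals (bases 2 to 8 from the 5′ end), is what pairs with target sites.
mmu-miR-199a-3p: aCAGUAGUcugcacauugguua
The sequence is from RefSeq (GRCm38.p6), 22 bases long, and is encoded at chr9:21496498-21496519 on the minus strand (Mir199a-1) and at chr1:162217883-162217904 on the plus strand (Mir199a-2). The letters of mmu-miR-199b-3p (chr2:32318524-32318545, plus strand) were the same, and 0 other mature microRNAs of the 1738 in that table had this seed.

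The libraries held between 31638930 and 38745528 reads assigned to transcripts, of which hsa-miR-590-3p had 34452240 and hsa-miR-199a-3p the most, and between 67.6% and 68.8% of them were placed uniquely. With 1 library per condition there is no replicate check of any difference below, and no test was made. A gene was called different when its CPM differed at least 2-fold. Intervals of ratios are exact 95% intervals (Clopper-Pearson) that cover counting error only and hold no variation between dishes or animals. Without molecular identifiers, copies of 1 molecule made by PCR are counted as separate reads. The intervals can therefore be too narrow even for counting error. These are bulk libraries, in which fewer cells of a type and less RNA per cell cannot be told apart. The level of the mimics themselves was not analysed here.

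Of the 13531 genes, 335 were at least 2-fold higher with hsa-miR-590-3p than with hsa-miR-199a-3p (2.48%) and 305 were at least 2-fold lower (2.25%), or 4.73% in either direction. The control libraries, set against each other over the same genes, passed the same fold in 1.94% (99 higher with cel-miR-67 than with mock, 0.732%, and 164 lower, 1.21%). The minimum level was taken over the microRNA libraries, so genes high in a single control could be left out. The shares of the microRNAs and of the controls are therefore not strictly alike. The middle 50% of log2 ratios ran from -0.26 to 0.27, and 82.8% of genes lay within 1.5-fold, against 93.0% between the controls. Among the 2120 genes averaging 100 CPM or more, hsa-miR-590-3p was 2-fold higher in 25 (1.18%) and lower in 7 (0.330%), 1.51% together, while the controls differed in 0.472% of them. The called genes were of lower abundance than the rest, with a median of 11.0 CPM for the higher and 4.07 CPM for the lower ones against 26.9 CPM for genes within 2-fold. Counting intervals lay wholly beyond 2-fold for 179 of the 335 higher and 133 of the 305 lower genes.

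**Figure D1:**
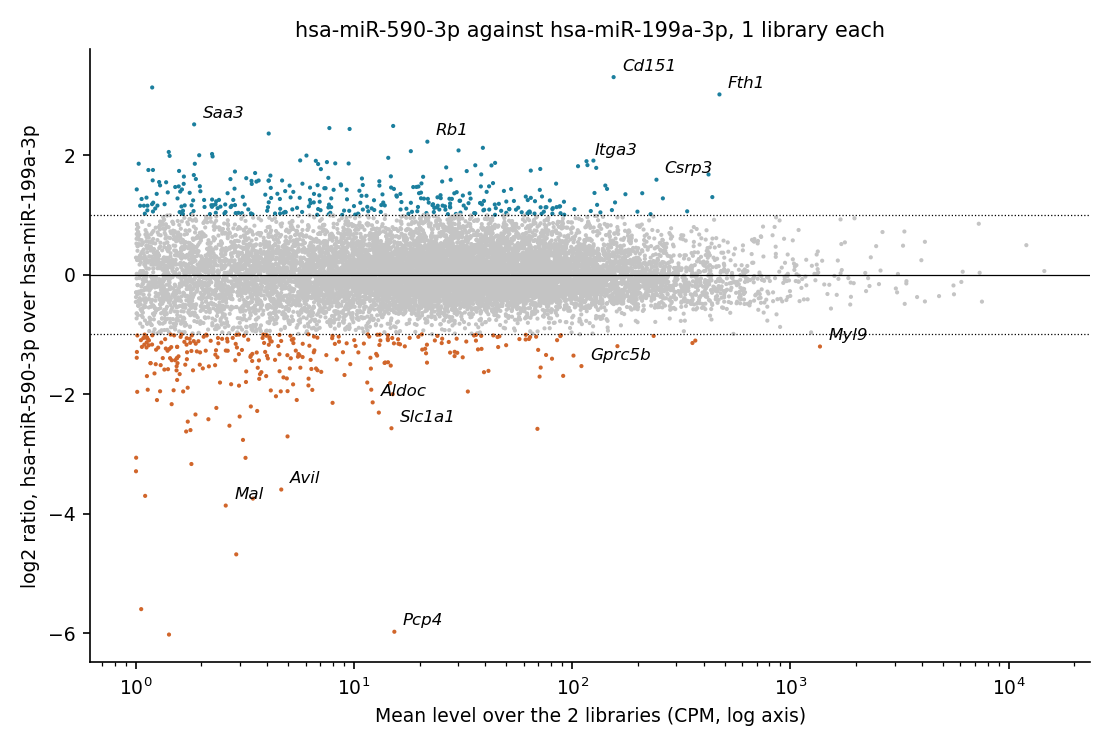
Log2 ratio of hsa-miR-590-3p over hsa-miR-199a-3p (y axis) against the mean CPM of both libraries (x axis, log scale), 1 point per gene, with blue points at least 2-fold higher and orange points at least 2-fold lower. The 335 higher and 305 lower genes spread over most of the range of levels, and Cd151 and Fth1 stand far above the other abundant genes.

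For most of these genes the mean of both controls lay nearer to hsa-miR-590-3p than to hsa-miR-199a-3p. Among the 335 higher genes, hsa-miR-199a-3p was at least 2-fold below both controls in 171 (over all genes 1.66%), and hsa-miR-590-3p was at least 2-fold above both in 6 (over all genes 0.599%). The mean of both controls was nearer to hsa-miR-590-3p than to hsa-miR-199a-3p in 295 of the 335 (88.1%). Among the 305 lower genes, hsa-miR-199a-3p was at least 2-fold above both controls in 187 (over all genes 3.38%), hsa-miR-590-3p was at least 2-fold below both in 5 (over all genes 0.155%), and the control mean was nearer to hsa-miR-590-3p in 284 (93.1%). Both controls lay between the 2 microRNA libraries in 168 of the 335 higher and 96 of the 305 lower genes. The genes were chosen by the ratio of the 2 microRNAs. That choice alone makes levels far from the controls more frequent than over all genes. These counts describe 4 libraries in which the same 2 enter every ratio, so they are a description of position only.

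Ratios followed the length of the transcript. Length here is that of each gene's records in the files, weighted by their reads. In the fifth of genes with the shortest transcripts the median log2 ratio was -0.20, and in the fifth with the longest it was 0.17, a difference of 0.37; between the controls the same difference was 0.07. Across genes, Spearman's rho of ratio and length was 0.29 (n = 13531) against 0.10 for cel-miR-67 over mock, as a description, since genes are not independent replicates. When genes were put into 20 bins of equal size, the median log2 ratio ran from -0.25 in the shortest bin (median length 601 bases) to 0.29 in the longest (8961 bases). The share of genes called higher was 1.78% in the shortest bin and 5.17% in the longest, and the share called lower 3.99% and 1.33%. The trend was there with uniquely placed reads only (difference 0.31), in genes with a single record (0.36) and in genes above (0.42) and below (0.30) the median level. Set against cel-miR-67, the longest minus shortest difference was -0.27 for hsa-miR-199a-3p and 0.10 for hsa-miR-590-3p, and against mock -0.18 and 0.17. The mean length of the transcript behind a read was 3852 bases in the hsa-miR-199a-3p library and between 4146 and 4212 bases in the other 3.

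**Figure D2:**
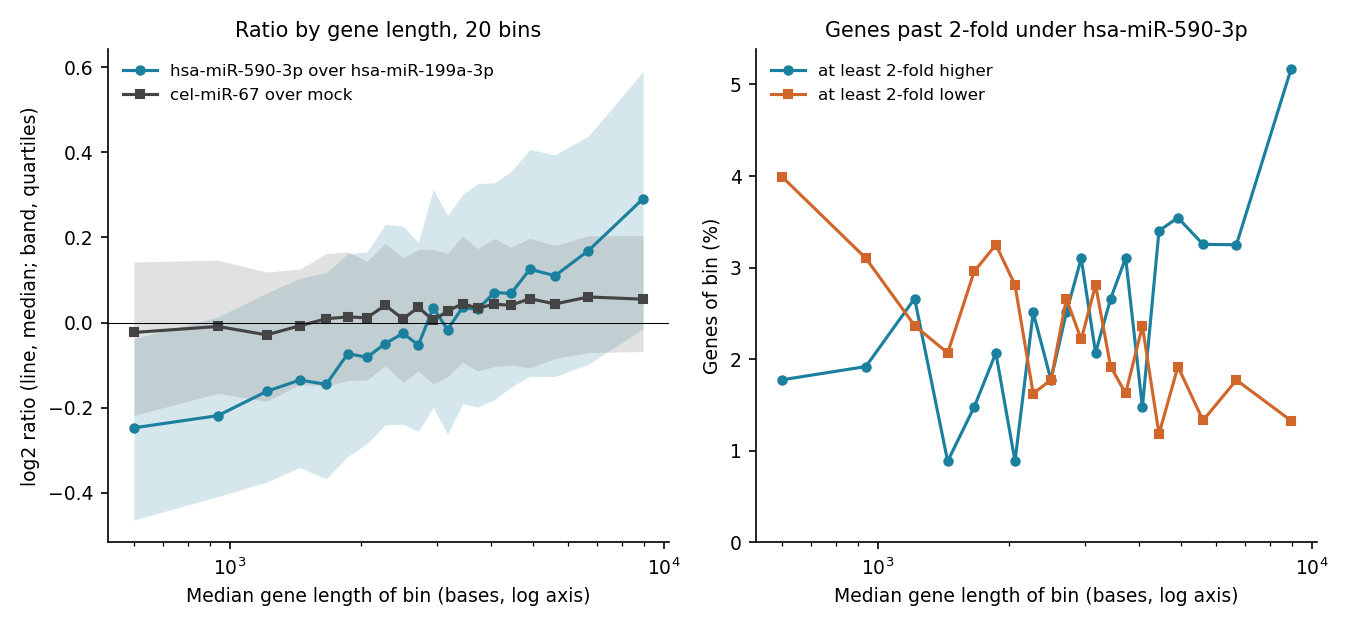
Left, median (line) and quartiles (band) of the log2 ratio in 20 equal-sized bins of gene length (x axis, bases, log scale), for hsa-miR-590-3p over hsa-miR-199a-3p, from -0.25 to 0.29 between the end bins, and for cel-miR-67 over mock, from -0.02 to 0.05. Right, percent of the genes of each bin at least 2-fold higher, from 1.78% to 5.17%, and at least 2-fold lower, from 3.99% to 1.33%.

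Ratios are therefore also given length-centred where that bears on them, that is, less the median of the genes in its own length bin. Centring left 313 genes higher (2.31%) and 286 lower (2.11%), 4.43% together, of which 273 and 255 were among those called without it. Long transcripts made up the abundant genes that dropped out of the higher group: Ankrd52 went from 1.08 to 0.91, Cpd, a carboxypeptidase of the Golgi, from 1.05 to 0.76, and Magt1, a magnesium transporter and oligosaccharyltransferase subunit, from 1.04 to 0.97. Short ones dropped out of the lower group, with Tmsb10, an actin-sequestering thymosin, moving from -1.03 to -0.78, Ephx1, the microsomal epoxide hydrolase, from -1.01 to -0.87 and Prkcdbp (now Cavin3), a caveolar protein, from -1.10 to -0.88. Gained were Abhd4 (0.99 to 1.01), Serpinb6b (0.93 to 1.00) and the mitochondrial ribosomal gene Mrpl12 (0.78 to 1.00) among the higher, and Purb (-0.79 to -1.08), Mtus2 (-0.85 to -1.14) and Abcc1 (-0.94 to -1.05) among the lower.

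The widest difference among higher genes was in Cd151, a tetraspanin that organises laminin-binding integrins at the cell surface. Cd151 was at 311 CPM in mock, 328 with cel-miR-67, 281 with hsa-miR-590-3p and 28.4 with hsa-miR-199a-3p. Only the last library stood apart, and the ratio of the 2 microRNAs was 9.89 (interval 9.29 to 10.5), with 4.92% of its reads placed uniquely among its 3 records. The iron-storage heavy chain Fth1 had 873, 874, 842 and 104 CPM in the same order, a ratio of 8.09 (7.83 to 8.36). Its partner in the ferritin shell, Ftl1, went the other way, with 518, 739, 633 and 1161 CPM and a log2 ratio of -0.88 (length-centred -0.66). Of the reads of these 2 single-record genes, 64.8% (Fth1) and 32.4% (Ftl1) were placed uniquely. Steap4, a metalloreductase, was at 4.87, 4.61, 3.599 and 0.903 CPM, a ratio of 3.98 (2.72 to 5.98). Of 24 measured iron-handling genes, 12 were higher and 12 lower. Only Fth1 and Steap4 passed 2-fold, both higher (8.33%, against 2.48% of all genes).

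The integrin gene Itga3 and the receptor gene Erbb4 were low in the hsa-miR-199a-3p library alone. Itga3, the integrin chain that pairs with Cd151, had 153 CPM in mock, 157 with cel-miR-67, 183 with hsa-miR-590-3p and 49.2 with hsa-miR-199a-3p. Erbb4, the neuregulin receptor of cardiomyocytes, had 13.2, 11.1, 16.1 and 2.97 CPM, and its log2 ratio was 2.44 (length-centred 2.37). In both genes the controls lay close to hsa-miR-590-3p. Of 24 measured integrins and adaptors, 3 were at least 2-fold higher with hsa-miR-590-3p (12.5%, against 2.48% of all genes), Itga3 (1.90), Itgb6 (1.64) and Itgb8 (1.57), and 0 were 2-fold lower (2.25% of all genes). Their list median was 0.14 and 0.03 after centring, as the list is one of long transcripts. Among 45 growth factor receptor and PI3K-mTOR genes, 29 were higher and 16 lower, with Erbb4 and the PI3-kinase subunit Pik3cb (1.36) past 2-fold (4.44%, near the 2.48% of all genes) and Mtor, the kinase of the pathway, at 0.58 (0.29 after centring). The list median was 0.18, and 0.06 after centring. Among 21 tetraspanins, Tspan8 was higher as well (1.14) and Tspan13 lower (-1.19), while Cd81, the most abundant by reads, was at -0.42.

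Other genes with high ratios act in metabolism and membranes. Slc16a12, a monocarboxylate transporter family member, had 7.81, 9.37, 13.1 and 2.37 CPM in the same order of libraries, and Slc25a13, the mitochondrial aspartate-glutamate carrier, had 38.9, 35.2, 48.8 and 11.5 CPM. Pon2, a paraoxonase of intracellular membranes, had 75.5, 65.9, 63.4 and 14.6 CPM. The log2 ratios were 2.45, 2.08 and 2.12. Nudt12, a peroxisomal NADH diphosphatase, was at 2.36 and Fam134b (now Retreg1), a receptor for autophagy of the endoplasmic reticulum, at 1.91. Among genes above 100 CPM, Nacc1 (1.81), Golga4, a golgin (1.49), Ktn1, kinectin (1.43), and the sheddase Adam10 (1.37) were also higher with hsa-miR-590-3p. For each of these 4 the hsa-miR-199a-3p library was lowest of all 4.

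Messengers reported in the literature as hsa-miR-199a-3p targets were mostly higher with hsa-miR-590-3p. Of 19 such genes, 17 were higher and 2 lower, 6 were at least 2-fold higher (31.6%, against 2.48% of all genes) and 0 lower, and the median log2 ratio was 0.76 (0.62 after centring); over all 13531 genes the median was -0.02, with 6524 higher and 7007 lower. This list was drawn up with earlier results of these data known, and without Cd151 and Rb1 it had 4 of 17 past 2-fold and a median of 0.69. Rb1, the retinoblastoma protein that holds back entry into S phase, was at 30.2 CPM in mock, 22.3 with cel-miR-67, 35.8 with hsa-miR-590-3p and 7.64 with hsa-miR-199a-3p, a ratio of 4.68 (4.12 to 5.33). Taok1, a kinase upstream of Hippo signalling, had 173, 179, 183 and 51.5 CPM, and its log2 ratio of 1.83 became 1.54 after centring for its length of 12411 bases. Pak4, an effector kinase of Cdc42, had 29.995, 24.4, 41.1 and 11.8 CPM. In these 3 genes the hsa-miR-199a-3p library was the lowest and hsa-miR-590-3p was above both controls. Itgb8 (1.57) and the histone demethylase Kdm6a (1.20) were the others past 2-fold. Of 9 measured genes reported as hsa-miR-590-3p targets, 6 were higher and 3 lower with hsa-miR-590-3p, and the median was 0.20. In either direction 0 passed 2-fold (4.73% of all genes). Homer1 (0.30), Hopx (0.09) and Clic5 (-0.12), known as candidate targets from the study, differed by less than 1.5-fold. Of 17 genes of microRNA processing and action, only Eif2c4 (now Ago4), an Argonaute, was past 2-fold, at 1.88 (5.88%, against 2.48% of all genes).

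**Figure D3:**
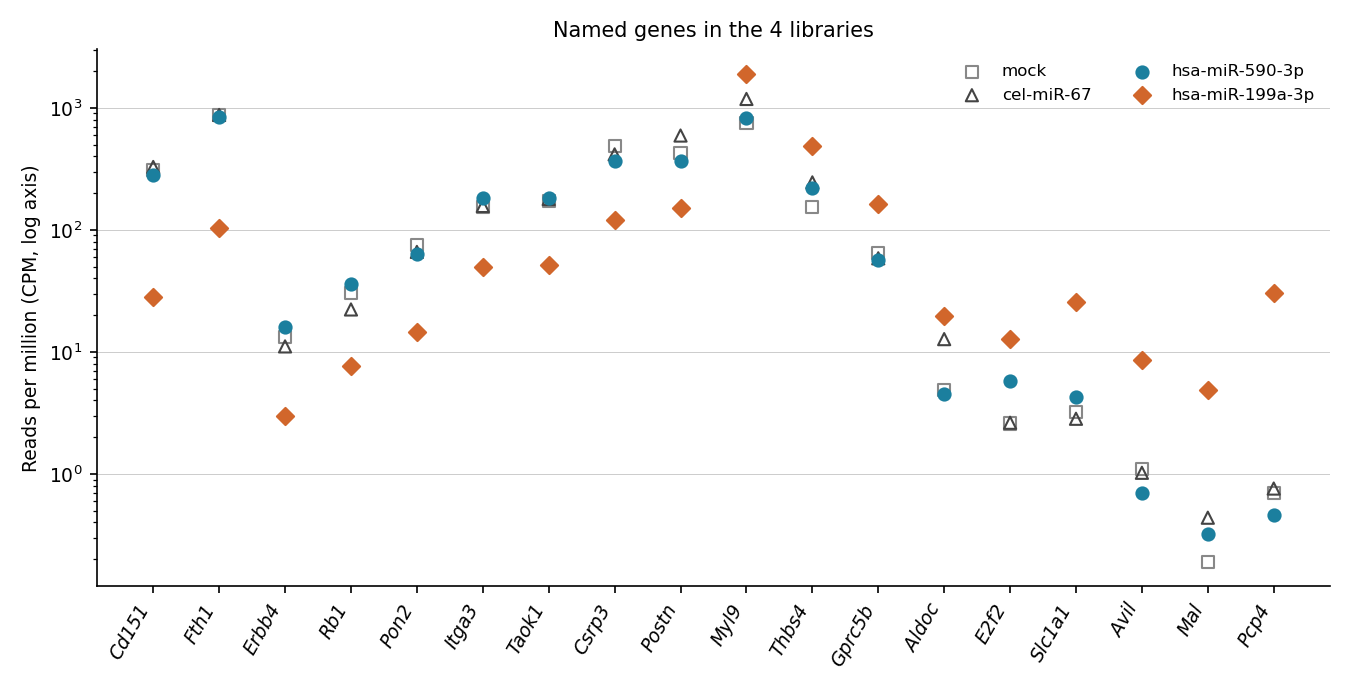
CPM (log axis) of selected genes in each of the 4 libraries, 1 point per library. For the genes higher with hsa-miR-590-3p the hsa-miR-199a-3p point lies below the other 3, as for Cd151 at 28.4 against 281 to 328 CPM, and for the lower genes it lies above them.

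Some genes listed as neuronal or myelin-type were among those with the lowest ratios, beside genes of other kinds such as Dub3, the lowest of all. Pcp4, a calmodulin-binding protein of Purkinje cells, had 0.695 CPM in mock, 0.759 with cel-miR-67, 0.464 with hsa-miR-590-3p and 30.2 with hsa-miR-199a-3p, which was 65.0-fold higher than with hsa-miR-590-3p (39.8 to 114). Mal, a proteolipid of myelin and apical membranes, had 0.190, 0.438, 0.319 and 4.85 CPM, 15.2-fold higher (8.30 to 31.0). Lypd1, a neuronal Ly6-family protein, had 0.253, 0.350, 0.464 and 6.43 CPM, 13.8-fold higher (8.35 to 24.6). For all 3 the controls and hsa-miR-590-3p were near 0 and only hsa-miR-199a-3p was high. Of the reads of Mal and Lypd1, 10% and 35.8% were placed uniquely. Slc1a1, a neuronal and epithelial glutamate transporter, already had 3.22, 2.83 and 4.27 CPM in the other 3 and 25.4 with hsa-miR-199a-3p. Avil (advillin, an actin-binding protein of sensory neurons) was at -3.598, Gap43, a growth cone protein, at -1.74 and Uchl1 at -1.35. Other genes listed as neuronal were higher or differed little. Mtap2 was at 0.99, Bex2 at 0.79, Tubb3 at 0.35 and Ncam1, the most abundant of the list by reads, at -0.30. Of 43 genes listed as neuronal or myelin-type, 20 were measured, 4 higher and 16 lower, with 12 at least 2-fold lower (60.0%, against 2.25% of all genes) and 0 higher. The median was -1.54 (-1.38 after centring), but 8 of these genes had been put on the list with their values known, and without them 4 of 12 were 2-fold lower with a median of -0.33. Of 8 defining markers of Schwann and nerve cells, 2 reached the minimum level, and they differed in opposite directions: S100b had 34 reads with hsa-miR-590-3p and 55 with hsa-miR-199a-3p, and Mbp, a myelin protein gene, had 847 and 808 (672 in mock and 583 with cel-miR-67). Sox10 had 0 reads in all 4 libraries. Their part in the result was not tested.

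Other genes at the low end had few reads outside the hsa-miR-199a-3p library. Dub3, a deubiquitinating enzyme, had 2 reads in mock, 11 with cel-miR-67, 1 with hsa-miR-590-3p and 109 with hsa-miR-199a-3p. It was 96.9-fold higher with hsa-miR-199a-3p than with hsa-miR-590-3p, with a counting interval from 17.0 to 3863. Only 17.1% of the reads of Dub3 were placed uniquely. Car6, a secreted carbonic anhydrase, was at 0.668 CPM with hsa-miR-590-3p and 5.70 with hsa-miR-199a-3p, Greb1, an oestrogen-responsive gene, at 0.784 and 5.42, and Stag3, the meiotic cohesin subunit, at 0.464 and 2.94. Both controls were below 2 CPM for these 3. The drug transporter Abcb1a and its close paralog Abcb4 differed in opposite directions, at -2.34 and 1.86. Of their reads, 79.7% and 95% were placed uniquely, and with those reads alone Abcb1a was at -2.14 and Abcb4 at 1.84. Abundant genes that were lower with hsa-miR-590-3p were few. Thbs4, a matricellular thrombospondin, had 153 CPM in mock, 245 with cel-miR-67, 222 with hsa-miR-590-3p and 490.0 with hsa-miR-199a-3p. Emp2, a membrane protein, had 308, 335, 233 and 501 CPM, and H19, an imprinted noncoding RNA of fetal tissue, 80.8, 96.2, 97.8 and 225 CPM. Gprc5b, an orphan receptor, was at -1.53 and Cd24a, a surface glycoprotein, at -1.36.

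Cell cycle genes were mostly somewhat lower with hsa-miR-590-3p, and few differed 2-fold. Of 54 DNA replication genes, 10 were higher and 44 lower, with a median of -0.33 (-0.30 after centring), and 0 were past 2-fold (4.73% of all genes). The most abundant by reads, Dnmt1, the maintenance DNA methyltransferase, had 124 CPM in mock, 143 with cel-miR-67, 204 with hsa-miR-590-3p and 271 with hsa-miR-199a-3p, and Rrm2, a subunit of ribonucleotide reductase, had 50.1, 52.4, 86.8 and 112 CPM. For both, the 2 microRNA libraries lay above both controls and hsa-miR-199a-3p was highest. Of 61 mitosis and spindle genes, 23 were higher and 38 lower, with a median of -0.29 (-0.22 after centring). Their spread ran from -0.90 for Cdc25b, the phosphatase that activates Cdk1, to 1.05 for Sgol1 (now Sgo1), the protector of centromeric cohesion. Only Sgol1 passed 2-fold (1.64%, against 2.48% of all genes). Sgol1 was at 8.25, 9.22, 17.9 and 8.65 CPM, so that here hsa-miR-590-3p was the library apart. Mki67, a marker of cycling cells, had 151, 165, 319 and 223 CPM. Its log2 ratio of 0.52 came to 0.23 after centring for a length of 10098 bases. The 19 cytokinesis genes were evenly spread (10 higher, 9 lower, median 0.01).

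Regulators of the cell cycle divided by gene. Of 23 G1/S cyclins, kinases and E2F factors, 4 were higher and 19 lower, with a median of -0.22. The only one past 2-fold was E2f2, an activating E2F, which was lower (4.35%, against 2.25% of all genes). E2f2 had 2.59, 2.63, 5.75 and 12.8 CPM, above the controls with both microRNAs and highest with hsa-miR-199a-3p. Ccne1, cyclin E1, kept the same order with 11.5, 13.0, 22.99 and 34.6 CPM. Of 19 inhibitors and pocket proteins, 11 were lower (median -0.32, -0.16 after centring). Among them was Cdkn1a (p21), at -0.44, with 127 CPM against 172 in the hsa-miR-199a-3p library. Rb1 was the only one past 2-fold and was higher (5.26%, against 2.48% of all genes). Of 19 p53 targets, 14 were lower and 1 of them, Trp53inp1, was 2-fold lower, at -1.02 (5.26%, against 2.25% of all genes). Ccng1, the most abundant of these by reads, had 332, 513, 189 and 271 CPM, lowest with hsa-miR-590-3p. Of 17 measured histone genes, 13 were lower, with a median of -0.24 that came to -0.09 after centring.

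**Figure D4:**
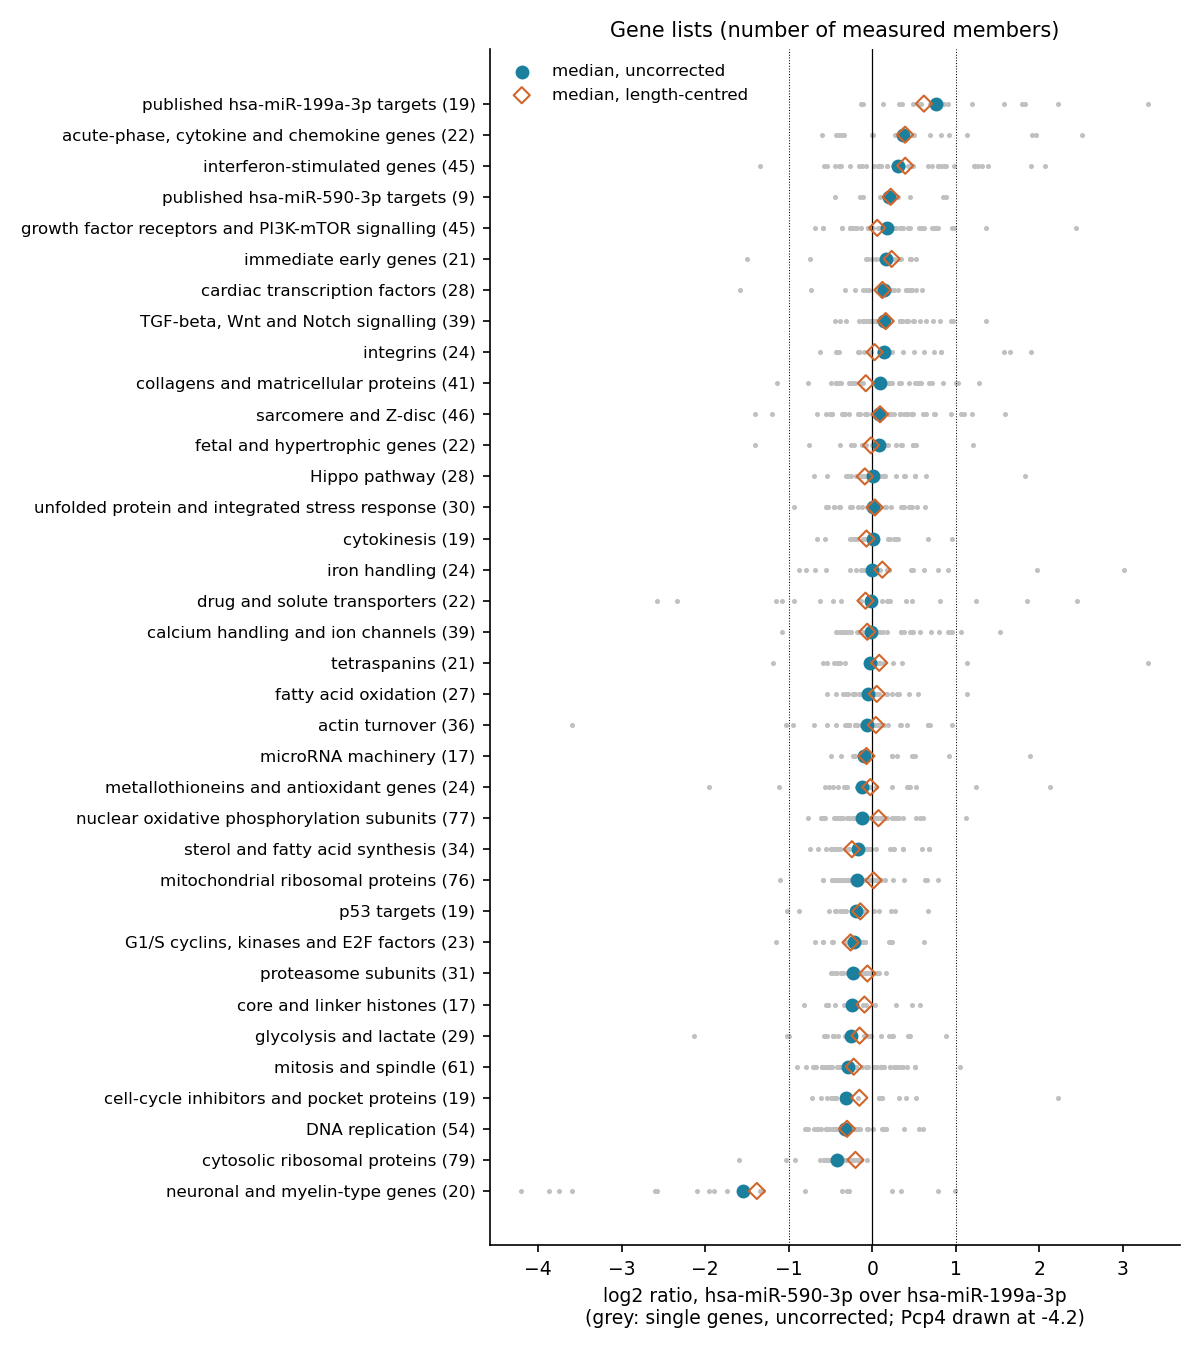
Log2 ratio of hsa-miR-590-3p over hsa-miR-199a-3p (x axis) for the measured members of each gene list, 1 point per gene, with the list median (filled circle) and the length-centred median (open diamond); Pcp4 lies beyond the left end of the axis. Replication genes and ribosomal proteins lie mostly left of 0, interferon-stimulated genes and reported hsa-miR-199a-3p targets mostly right of it.

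Muscle genes divided within the contractile apparatus. Of 46 sarcomere and Z-disc genes, 27 were higher and 19 lower, with a median of 0.08; 4 were 2-fold higher (8.70%, against 2.48% of all genes) and 2 were 2-fold lower (4.35%, against 2.25%). Csrp3, the muscle LIM protein of the Z-disc, had 489 CPM in mock, 415 with cel-miR-67, 365 with hsa-miR-590-3p and 121 with hsa-miR-199a-3p, and its ratio was 3.01 (2.91 to 3.11), with 5.32% of its reads placed uniquely among its 2 records. Nebl, the cardiac nebulin relative of the Z-disc, had 179, 119, 165 and 78.8 CPM, and Ankrd23, a titin-bound ankyrin repeat protein, 97.9, 79.0, 70.1 and 32.9 CPM. Xirp2, a protein of the intercalated disc with a transcript of 11967 bases, had 157, 73.2, 46.6 and 20.4 CPM, and its 1.20 came to 0.90 after centring. On the other side were the light chain Myl9 of smooth muscle and nonmuscle myosin, with 748, 1182, 827 and 1905 CPM, and skeletal actin Acta1, with 77.9, 58.7, 44.2 and 117 CPM. The cardiac myosin chain Myh6 differed little, at 14868 CPM with hsa-miR-590-3p and 14272 with hsa-miR-199a-3p. Calcium handling and channel genes had a median of -0.02 over 39 members. The skeletal calsequestrin Casq1 (1.06) and the chloride transporter Clcn3 (1.53) were 2-fold higher (5.13%, against 2.48% of all genes). The potassium channel subunit Kcne1 was 2-fold lower, at -1.09 (2.56%, against 2.25%). Kcne1 had 53.9 CPM in mock, 16.6 with cel-miR-67, 39.2 with hsa-miR-590-3p and 83.2 with hsa-miR-199a-3p. Its log2 ratio of cel-miR-67 over mock was -1.70.

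Natriuretic peptides differed from each other. Nppb, which encodes the B-type peptide, was at 296 CPM in mock, 278 with cel-miR-67, 219 with hsa-miR-590-3p and 95.005 with hsa-miR-199a-3p, a log2 ratio of 1.21. Nppa, the atrial peptide, was at 1926, 2179, 1104 and 972 CPM, with both microRNAs below both controls and a log2 ratio of 0.18. Of 28 cardiac transcription factors, 21 were higher with hsa-miR-590-3p and 7 lower (median 0.14, 0.12 after centring). The most abundant by reads, Tbx20, was at 0.60. Hand1, a factor of the left ventricle and outflow, was the only one past 2-fold and was lower (3.57%, against 2.25% of all genes). Its levels were 2.21, 2.71, 3.19 and 9.58 CPM.

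Ribosomal and mitochondrial genes, which have short transcripts, had medians that moved with length-centring. All 79 cytosolic ribosomal protein genes were lower with hsa-miR-590-3p (median -0.42), and after centring the median was -0.20 with 8 of them above 0. Of these, 24 had at least 50% of their reads placed uniquely, and all 24 were lower, with a median of -0.44 (-0.24 after centring). Rplp0, a stalk protein, was at 1055, 1133, 1028 and 1370 CPM. Of 77 nuclear-encoded subunits of oxidative phosphorylation, 55 were lower with a median of -0.13, but after centring 53 were higher with a median of 0.07. Ndufb7, a complex I subunit of 533 bases, was the only one past 2-fold (1.30%, against 2.48% of all genes). It had 105, 110, 104 and 47.5 CPM and a log2 ratio of 1.13 (1.37 after centring). Mitochondrial ribosomal proteins went from a median of -0.18 to 0.01 over 76 genes, and 31 proteasome subunits from -0.23 to -0.06. Of 29 glycolysis genes 21 were lower (median -0.26, -0.15 after centring), with Aldoc, the brain-type aldolase, at 4.90, 12.7, 4.50 and 19.9 CPM and the glucose transporter Slc2a3 at -1.02. Gapdh was at -0.23 (-0.07 after centring) and Actb, the cytoskeletal actin, at 0.07. Of 34 sterol and fatty acid synthesis genes, 25 were lower (median -0.17, -0.24 after centring). Of 27 fatty acid oxidation genes, only Cd36, a fatty acid receptor and importer, passed 2-fold (3.70%, against 2.48% of all genes). Its log2 ratio was 1.13, and 0.75 with uniquely placed reads.

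Interferon-stimulated genes, which cells switch on in response to interferon or foreign RNA, were mostly higher with hsa-miR-590-3p. Of 45 genes, 35 were higher and 10 lower, and the median log2 ratio was 0.31 (0.39 after centring). At least 2-fold higher were 7 (15.6%, against 2.48% of all genes), and 1 was 2-fold lower (2.22%, against 2.25%). The control libraries were further apart than the 2 microRNAs: cel-miR-67 was below mock in all 45, at least 2-fold below in 27, and its median against mock was -1.33. Ddx60, a helicase of antiviral sensing, had 35.0 CPM in mock, 16.1 with cel-miR-67, 29.4 with hsa-miR-590-3p and 7.02 with hsa-miR-199a-3p, and here hsa-miR-199a-3p was the lowest. Cxcl10, a chemokine for lymphocytes, had 9.13, 2.48, 10.6 and 2.81 CPM. Ifit1, which binds foreign RNA ends, had 134, 34.4, 94.7 and 40.4 CPM, and its relative Ifit3 was at 1.27. In Cxcl10 and Ifit1 hsa-miR-590-3p was close to mock, and hsa-miR-199a-3p was close to cel-miR-67. As these genes also differ between controls, how much of their difference belongs to either microRNA cannot be told apart from the difference between dishes.

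The promoters of 4 genes at least 2-fold higher are shown around the motif of interferon-responsive elements, in capitals, searched as GAAANNGAAA on both strands (TTTC runs are its other strand). These are 60 bases each on the strand of the gene, upstream of its start, from RefSeq (GRCm38.p6).
Cxcl10 (chr5:92349068-92349127, minus strand): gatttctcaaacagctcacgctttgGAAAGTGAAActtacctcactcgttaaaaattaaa
Ddx60 (chr8:61928009-61928068, plus strand): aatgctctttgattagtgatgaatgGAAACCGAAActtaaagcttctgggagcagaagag
Ifit1 (chr19:34640760-34640819, plus strand): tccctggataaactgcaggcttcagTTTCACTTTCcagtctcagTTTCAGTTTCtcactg
Ifit3 (chr19:34583348-34583407, plus strand): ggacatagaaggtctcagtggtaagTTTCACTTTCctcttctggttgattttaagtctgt
Of 34 interferon-stimulated genes with a promoter of 300 bases in that table, 19 held the motif (55.9%), against 1079 of all 27025 promoters (3.99%). A match describes the letters and is no evidence of binding.

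Members of the list that serve antigen presentation went the other way from the rest, a division made after their values were seen. Of B2m, H2-K1, H2-D1, Tap1, Psmb8 and Psmb9, 5 of 6 were lower with hsa-miR-590-3p (median -0.50, and -0.34 after centring), whereas 34 of the other 39 were higher, with a median of 0.37. H2-K1, a class I heavy chain, had 115 CPM in mock, 77.1 with cel-miR-67, 114 with hsa-miR-590-3p and 166 with hsa-miR-199a-3p, and Psmb9, an immunoproteasome subunit, had 1.49, 0.642, 1.31 and 3.33 CPM. In both, hsa-miR-199a-3p was highest and cel-miR-67 lowest. A further 8 genes of antigen presentation off the list were also added after the data were seen. Of these, 6 were lower, with a median of -0.25 that came to -0.08 after centring. Erap1, which was higher, differed most, at 0.99.

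**Figure D5:**
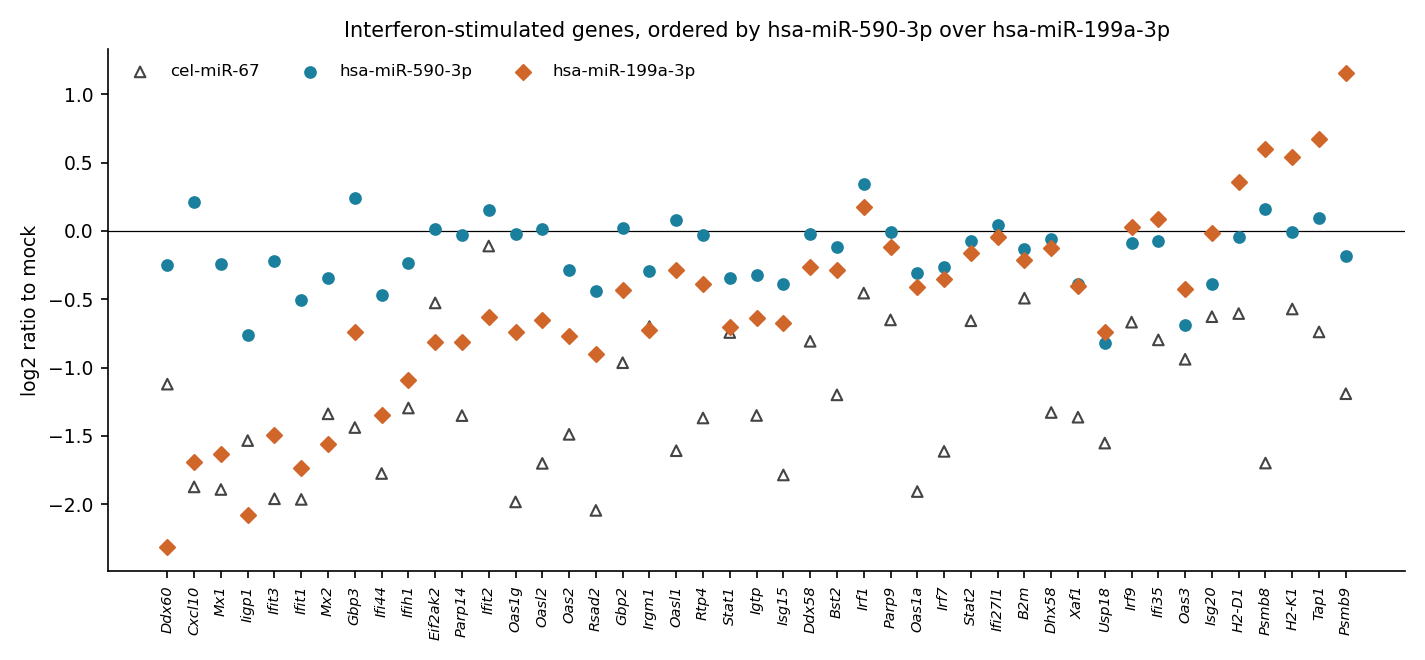
Log2 ratio to mock (y axis) of each of the 45 interferon-stimulated genes in the other 3 libraries, 1 point per library, ordered from left to right by falling ratio of hsa-miR-590-3p over hsa-miR-199a-3p. All 45 cel-miR-67 points lie below 0, hsa-miR-590-3p lies above hsa-miR-199a-3p in 35 genes, and Psmb9, Tap1 and H2-K1 are at the right end.

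A few cytokine and acute-phase genes were at least 2-fold higher with hsa-miR-590-3p. Of 44 listed, 22 were measured, 17 higher and 5 lower, with 4 at least 2-fold higher (18.2%, against 2.48% of all genes), 0 lower and a median of 0.37. Ccl2, a chemokine for monocytes, had 23.4 CPM in mock, 17.7 with cel-miR-67, 22.8 with hsa-miR-590-3p and 5.88 with hsa-miR-199a-3p, and Ccl7, its neighbour in the chemokine cluster, had 7.997, 7.50, 8.97 and 2.37 CPM. Saa3, an acute-phase protein, had 3.10, 1.90, 3.16 and 0.542 CPM. For these 3 the hsa-miR-199a-3p library was the only one apart. The alarmin Il33 was at 1.13.

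Summed markers of the cell types in the dish differed by less than 1.5-fold between the 2 microRNA libraries. Summed over 9 cardiomyocyte markers, the level was 51940 CPM in mock, 46769 with cel-miR-67, 37894 with hsa-miR-590-3p and 38949 with hsa-miR-199a-3p, so the cardiomyocyte label fits the defining genes in all of them. Fibroblast markers, all 10 measured, summed to 11947 CPM with hsa-miR-590-3p and 12548 with hsa-miR-199a-3p (10349 and 10141 in mock and cel-miR-67), with Postn, periostin, at 428, 593, 369 and 152 CPM (2.49% of its reads were placed uniquely) and Col1a1, collagen I, at -0.12. Col1a1 alone was 5810 and 6329 CPM of these sums, while 6 of the 10 fibroblast markers were higher with hsa-miR-590-3p, 2 of them 2-fold (Postn and Dcn, at 1.28 and 1.03), and their median was 0.44 (0.36 after centring). Smooth muscle and pericyte markers summed to 5494 and 6907 CPM (4524 and 5466 in the controls), with Acta2, smooth muscle actin, at -0.45 and Rgs5, of pericytes, at 1.16. Of 10 endothelial markers 4 were higher and 6 lower, with sums of 303 and 286 CPM, and epicardial markers summed to 523 and 459 CPM. Macrophage and leukocyte markers, with 4 of 12 measured, summed to between 6.5 and 16.6 CPM over the 4 libraries, highest in mock, and 0 of 7 erythroid markers reached the minimum. The part of cell mixture in the differences of Myl9, Postn, Thbs4 and the neuronal-type genes was not tested.

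Of 22 drug and solute transporters, 3 were 2-fold higher (13.6%, against 2.48% of all genes), namely Slc16a12, Abcb4 and Abca1. Abca1, with a length of 10260 bases, went from 1.25 to 0.96 after centring. Another 4 were 2-fold lower (18.2%, against 2.25%), among them Slc1a1 and Abcb1a, and the list median was -0.01. Taok1 was the only one of 28 Hippo genes past 2-fold and was higher (3.57%, against 2.48% of all genes). The activin receptor Acvr2a (1.36) was the only one of 39 genes of TGF-beta, Wnt and Notch signalling (2.56%), whose median was 0.14. Among 24 metallothionein and antioxidant genes, Pon2 and the stress-induced metallothionein Mt2 (1.24) were 2-fold higher (8.33%, against 2.48% of all genes). The brain-type Mt3 (-1.95) and Nqo1, a quinone reductase (-1.12, and -0.99 after centring), were 2-fold lower (8.33%, against 2.25%). Mt2 had 15.4 CPM in mock, 7.24 with cel-miR-67, 17.4 with hsa-miR-590-3p and 7.33 with hsa-miR-199a-3p, so the controls differed 2-fold as well. Of 21 immediate early genes, 16 were higher. Egr3, the only one past 2-fold, was lower (4.76%, against 2.25% of all genes), with 0.639 CPM against 1.83 in the hsa-miR-199a-3p library. Of 30 genes of the unfolded protein and integrated stress response, 0 passed 2-fold (4.73% of all genes), and their median was 0.01.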

How the data were processed

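RNA sequencing of total RNA was done on neonatal mouse cardiomyocytes, 1 library per condition, grouped by the treatment in the labels. Per the file headers, the authors deposited for each of 36065 transcript records a count of total reads, a count of uniquely placed reads, the record's length and its RPKM. The submitters' processing notes name CASAVA 1.8 and mm8, with no role; which program mapped and counted the reads was not given in the sources used here. Total counts include reads shared between records, so near-identical genes are uncertain.

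Total counts were summed per gene symbol (6249 of 27207 symbols had 2 or more records) and scaled to the library total. Log2 ratios used a prior count of 0.5, and genes needed a mean of 1 CPM over the 2 microRNA libraries. Length was the read-weighted mean of a gene's records, and centring subtracted the median of its bin (20 bins). Intervals are conditional Clopper-Pearson intervals at 95%. A count of 0 allows up to 0.0949 CPM in the shallowest library (3 reads). With 0 residual degrees of freedom, edgeR 4.0.16 in R 4.3.3 gave only TMM factors for an alternative, in place of a test. Python 3.11.15, numpy 2.4.6, pandas 2.3.3, scipy 1.17.1 and matplotlib 3.10.9 were used, and the ratio code was tested on simulated data.

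The comparison, gene lists and rules were chosen with earlier results of these data known. Named genes were the 15 highest and 15 lowest past 2-fold with at least 100 reads in the higher library, the 10 highest and 10 lowest of at least 100 CPM, up to 3 members past 2-fold per direction and list plus its most abundant member, Gapdh and Actb, and the 3 most abundant whose call centring changed. Homer1, Hopx and Clic5 are known from the study. Others outside that rule (Bex2, Ccne1, Cdc25b, Erap1, Gap43, H2-D1, H2-K1, Ifit1, Ifit3, Il33, Kdm6a, Mtap2, Mtor, Nebl, Nppa, Pak4, Psmb8, Rrm2, Tap1, Tubb3, Uchl1 and single cell-type markers) were picked after their values were seen. Pseudogenes, Xist, Y-linked genes and models known only by a clone or model number were counted and not named. Sequences and promoters came from RefSeq tables of GRCm38.p6, a build other than that named by the submitters. Some genes that meet the rule are not reported here.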

Additional observations from a re-analysis of the deposited data

How the results depend on the processing

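Counts of called genes moved most with the minimum level. With a mean of at least 5 CPM, 223 genes were higher and 133 lower with hsa-miR-590-3p (62.6% of the called were higher), and with no minimum 1799 and 2324 (43.6%), against 335 and 305 (52.3%) as reported. TMM scaling, which moved the median of all genes from -0.02 to 0.00, gave 356 and 284, uniquely placed reads 319 and 262, the authors' RPKM 331 and 298, a prior count of 5 308 and 269, single-record genes 256 and 252, and centring by the longest record 319 and 285. Of the 26 lists whose median was at least 0.1 in size, 2 changed sign when length-centred, oxidative phosphorylation (0.0736) and mitochondrial ribosomal proteins (0.0145); of the 17 with smaller medians, 9 did. The median of fibroblast markers changed sign with single-record genes only (-0.11, against 0.44). The antigen presentation members of the interferon list (-0.50) were set apart after the data were seen. So were the lists without named members, the further antigen presentation genes and the ribosomal genes with mostly unique reads. Of 88 named genes past 2-fold, 85 stayed past it under TMM, 77 when length-centred, 73 of 76 with uniquely placed reads, and all 88 under a prior count of 5. All 88 also stayed under RPKM, where length cancels in the ratio of single-record genes. Dropping the minimum cannot change the ratio of a named gene, so that setting was no check of these genes. No paired analysis was possible because there was 1 library per condition. Low counts limit the precision: 49 of the higher and 74 of the lower genes had under 100 reads in the higher library.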
